A study of Mus musculus with 18 samples.

Results

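The Wnt ligand genes Wnt6, Wnt10a, Wnt4, Wnt9a, Wnt11, Wnt7b, Wnt5b and Wnt8a were followed in mouse embryonic stem (ES) cells with and without the chromatin remodeller Snf2h. These 8 genes were taken from the 24116 genes of the count table by their symbols, and the table held 19 Wnt ligand genes in all. They had been picked because Wnt6 and Wnt10a were high where active Snf2h was missing. Their differences between Snf2h ko and wild type, between the wild-type add-back and Snf2h ko, and between the mutant and the wild-type add-back are therefore given as descriptions, with no test. Of the 8 genes, 7 passed the filter on low counts and Wnt8a did not.

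Wnt ligands are secreted, lipid-modified glycoproteins. They need the acyltransferase Porcupine (Porcn) and the carrier Wntless (Wls) to leave the cell, and bind Frizzled receptors with the co-receptors Lrp5 and Lrp6 on the receiving cell. In the canonical branch this stabilises beta-catenin, which acts with Tcf/Lef factors on target genes such as Axin2, and other ligands act through Ror receptors without beta-catenin. In mouse ES cells canonical Wnt signalling is known to favour self-renewal, while in the embryo it is needed for the primitive streak.

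Polyadenylated RNA was sequenced from 18 libraries of 129S6/SvEvTac ES cells, grown in DMEM with fetal calf serum and LIF on gelatin. The groups were Snf2h ko cells that re-express an ATPase-mutant Snf2h (mutant add-back, n = 2, replicates 1 and 3), Snf2h ko cells that re-express wild-type Snf2h (wild-type add-back, n = 3), Snf2h ko cells (n = 5) and wild-type cells (n = 8). Both add-back groups thus carry the ko, and the labels describe each as a line, without saying how many clones were used. After thawing, the ko line and the mutant add-back line went through at least the first passages on feeder layers of mouse embryonic fibroblasts, which the labels state for no other line. Whether replicates are separate cultures is not stated, so p-values measure the spread between these samples, which may be technical.

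Snf2h is encoded by Smarca5, whose level in CPM (counts divided by the scaled library total in M counts) was 58.5 ± 14.3 in the mutant add-back (SD, n = 2), 86.0 ± 3.63 in the wild-type add-back (n = 3), 9.36 ± 0.59 in Snf2h ko (n = 5) and 185 ± 29.1 in wild type (n = 8). The wild-type add-back therefore held less Smarca5 RNA than wild type in every library. Library totals ran from 15.3 to 37.0 M counts and fell into 3 sets that the labels do not mention: 11 low-total libraries (under 20 M counts), 4 middle-total libraries (22.9 to 25.3 M counts) and 3 high-total libraries (31.0 to 37.0 M counts). All add-back libraries, Snf2h ko replicates 3, 4 and 5 and wild-type replicates 6, 7 and 8 were low-total. Snf2h ko replicates 1 and 2 and wild-type replicates 1 and 2 were middle-total, and wild-type replicates 3, 4 and 5 were high-total. Libraries of 1 group from different sets differed widely (of all tested genes 20.3% were called higher and 23.5% lower in the middle-total than in the low-total Snf2h ko libraries, 43.8% in all, and 21.6% and 21.9% in wild type, 43.5% in all). The members' differences are therefore given over all libraries and, for most, within the sets. Many differences of other genes are given over all libraries only, and their values within the sets can differ. ES cell markers had counts in all groups (8 of 8 genes), with a summed level of 5555 to 5738 CPM in the mutant add-back, 4964 to 5217 CPM in the wild-type add-back, 3921 to 5613 CPM in Snf2h ko and 4944 to 5070 CPM in wild type. Primitive streak markers (8 genes) summed to at most 11.1 CPM in any library.

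Wnt6 and Wnt10a were high in the mutant add-back and in Snf2h ko and low in the wild-type add-back and in wild type. They lie side by side on chromosome 1 in the same orientation, Wnt6 at chr1:74754342-74785322 (plus strand) and Wnt10a at chr1:74792019-74804176 (plus strand, GRCm38.p6), with 6.70 kb between them. Wnt6 is a ligand known from endoderm differentiation of embryonal carcinoma cells and from trophoblast, and Wnt10a is known for its role in teeth, hair follicles and other skin appendages.

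Wnt6 stood at 38.6 and 33.6 CPM in the mutant add-back, at 1.21, 1.35 and 1.35 CPM in the wild-type add-back, at 14.65, 13.8, 23.5, 22.9 and 21.7 CPM in Snf2h ko, and at 0.746 to 3.24 CPM in wild type (median 0.957). The lowest Snf2h ko library thus lay above every wild-type and wild-type add-back library, and both mutant add-back libraries lay above every Snf2h ko library. The groups' means were 36.1 ± 3.55, 1.31 ± 0.079, 19.3 ± 4.71 and 1.64 ± 1.10 CPM (SD) for the mutant add-back, the wild-type add-back, Snf2h ko and wild type. Within wild type the 3 low-total libraries held 2.81 to 3.24 CPM and the other 5 held 0.746 to 1.00 CPM. Within Snf2h ko the low-total libraries were also the higher ones.

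The log2 fold change of Wnt6 in Snf2h ko over wild type was 3.64 (SE 0.32, 12.5-fold), with 2.94 (SE 0.11) in the low-total and 4.08 (SE 0.16) in the middle-total libraries. The wild-type add-back over Snf2h ko gave -3.88 (SE 0.49), and -4.12 (SE 0.13) in the low-total libraries. In the mutant over the wild-type add-back it was 4.78 (SE 0.54). The last comparison holds low-total libraries only. These comparisons share groups, so their values are not independent of each other.

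The deposited counts are of bulk RNA, in which fewer cells of a type and less RNA per cell cannot be told apart. Since the ko and mutant add-back lines had passages on feeders, embryonic fibroblast markers (15 listed genes) are given beside Wnt6 and Wnt10a. Their summed level was 76.2 to 89.7 CPM in the mutant add-back, 23.7 to 25.2 CPM in the wild-type add-back, 93.0 to 107.7 CPM in Snf2h ko and 23.9 to 45.2 CPM in wild type. In Snf2h ko against wild type 9 of the 11 tested markers were higher and 1 lower, with a median log2 change of 3.09. Of all tested genes 26.8% were called higher and 28.2% lower in this comparison. The defining fibroblast marker Lum had no count in the mutant add-back or in Snf2h ko, and Dcn reached at most 0.171 CPM in the mutant add-back and 0.0788 CPM in Snf2h ko. Most of the 11 tested markers, among them those named next, were higher in the mutant add-back and in Snf2h ko than in the other 2 groups. In the mutant against the wild-type add-back 10 were higher and 0 lower (18.4% and 18.6% of all tested genes). In the wild-type add-back against Snf2h ko 0 were higher and 9 lower (22.5% and 22.4% of all tested genes). Not every listed marker was higher in the mutant add-back, as Fap had no count in either add-back. The collagen Col1a1 averaged 9.32 CPM in the mutant add-back, 1.94 CPM in the wild-type add-back, 15.8 CPM in Snf2h ko and 4.6 CPM in wild type. Prrx1, a mesenchymal transcription factor, averaged 2.51, 0.0437, 1.83 and 0.106 CPM in these groups in the same order, Postn 1.06, 0, 1.39 and 0.0448 CPM, and the collagen Col3a1 0.429, 0.041, 1.10 and 0.124 CPM. Prrx1, Postn and Col3a1 passed the filter only through Snf2h ko or the mutant add-back, where they were high. The counts of markers higher in these groups, and the median change, therefore carry no weight of their own. In the mutant add-back against Snf2h ko none of the 11 markers was higher and 1 was lower, with 3 lower within the low-total libraries. Of all tested genes 0.322% were called over all libraries (0.208% lower) and 14.6% within the low-total ones (7.80% lower). The part of feeder cells in the Wnt6 and Wnt10a levels was not tested.

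Wnt10a followed Wnt6 at a lower level, with 5.86 and 5.24 CPM in the mutant add-back, 0.383, 0.123 and 0.0674 CPM in the wild-type add-back, 1.54, 1.66, 3.78, 3.49 and 3.25 CPM in Snf2h ko, and 0 to 0.328 CPM in wild type (median 0.174). Here too both mutant add-back libraries were above all Snf2h ko libraries, and those were above all libraries of the other 2 groups. Its total count was 194 in the mutant add-back, 9 in the wild-type add-back, 271 in Snf2h ko and 37 in wild type, so that its level in the wild-type add-back rests on few reads. Its log2 fold change was 3.84 (SE 0.37) in Snf2h ko over wild type, 3.78 (SE 0.34) in the low-total and 4.56 (SE 0.55) in the middle-total libraries. It was -3.78 (SE 0.57) in the wild-type add-back over Snf2h ko, and -4.15 (SE 0.37) in the low-total libraries. In the mutant over the wild-type add-back it was 4.81 (SE 0.62). Without wild-type add-back replicate 1, its highest library there, these became 5.77 for the mutant over the wild-type add-back and -4.74 for the wild-type add-back over Snf2h ko. Across the 18 libraries log2 CPM of Wnt6 and Wnt10a had a Pearson r of 0.95, and the libraries share groups and total sets. A non-coding gene on the opposite strand, Gm29539, lies within the Wnt6 span, and Gm32099 overlaps the stretch between the pair. Neither is analysed here, and because no source states a strand setting for the counting, reads from Wnt6 and an antisense gene cannot be told apart.

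**Figure D1:**
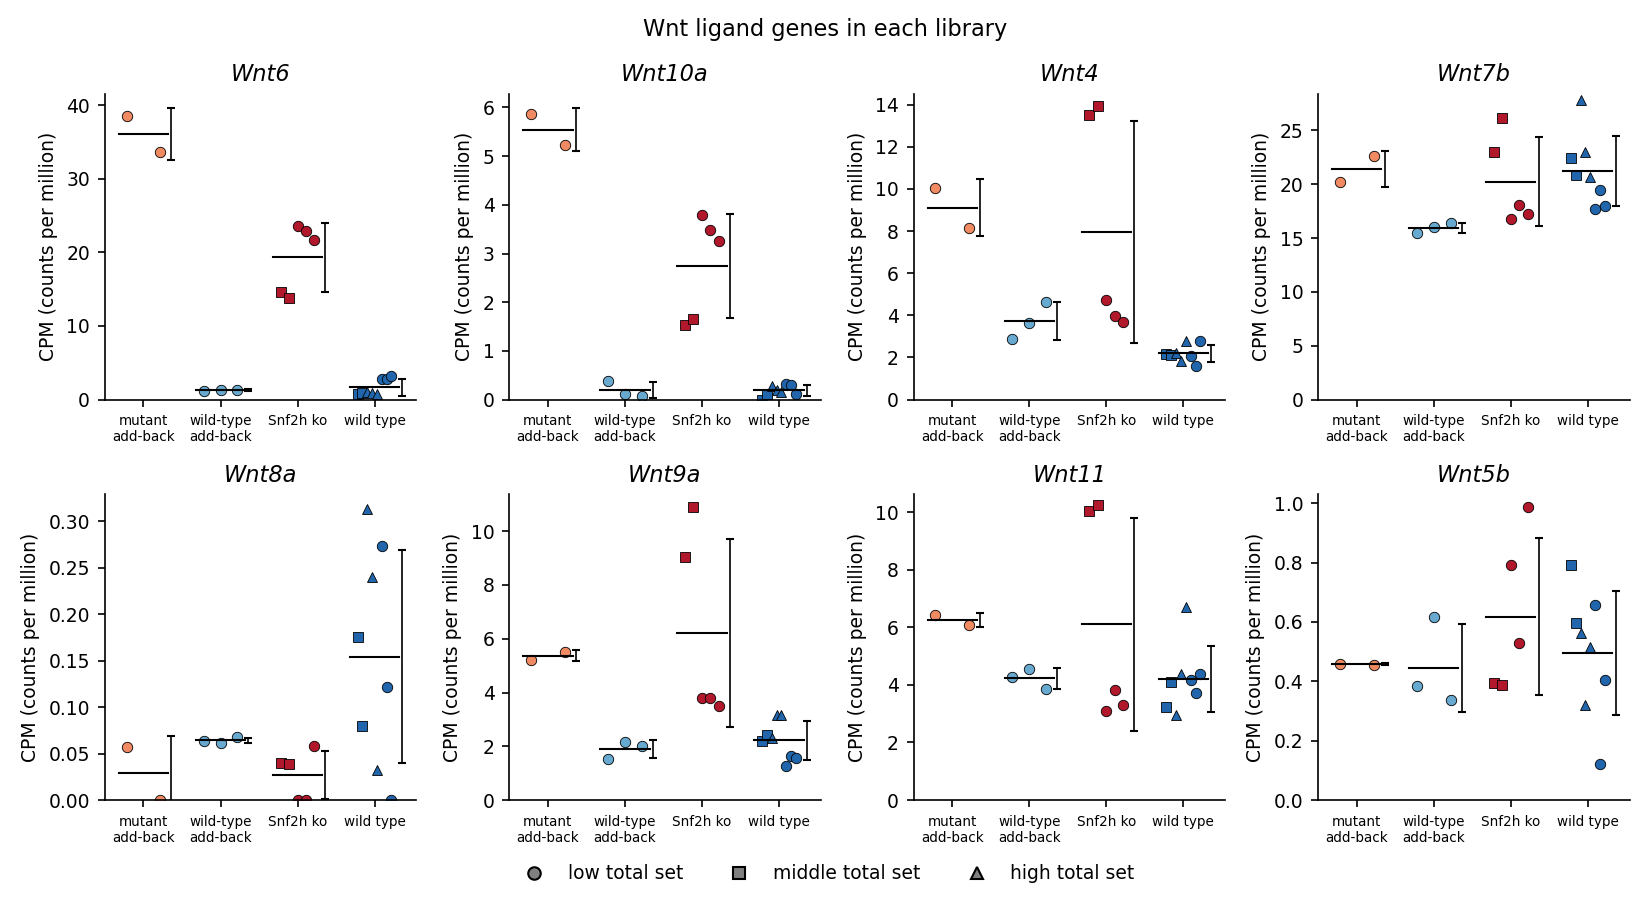
Level of each of the 8 Wnt ligand genes in CPM (linear axis from 0) in each library, by group, with the marker shape giving the library-total set. Lines are group means and bars are SDs (n = 2, 3, 5 and 8), and the Wnt6 and Wnt10a panels show mutant add-back and Snf2h ko libraries above all wild-type add-back and wild-type libraries.

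The promoter sequences of the members that were higher in Snf2h ko than in wild type in both total sets are shown because these are the genes on which the Snf2h comparisons turn. They are the 250 bases before a RefSeq transcript start on GRCm38.p6, and 5 of the 8 members have an entry. Capitals mark GGGCGG or its reverse complement CCGCCC, the core bound by Sp/Klf factors, and overlapping matches run together. The Wnt6 window is chr1:74771642-74771891 (plus strand), inside the annotated Wnt6 span. The Wnt4 window is chr4:137277385-137277634 (plus strand) and the Wnt9a window is chr11:59306680-59306929 (plus strand). Wnt10a is named only.
Wnt6: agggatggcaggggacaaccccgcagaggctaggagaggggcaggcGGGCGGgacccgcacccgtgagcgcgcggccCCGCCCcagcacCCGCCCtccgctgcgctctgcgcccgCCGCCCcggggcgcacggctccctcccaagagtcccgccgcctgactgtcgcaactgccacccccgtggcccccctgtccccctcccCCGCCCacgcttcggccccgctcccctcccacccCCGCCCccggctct
Wnt4: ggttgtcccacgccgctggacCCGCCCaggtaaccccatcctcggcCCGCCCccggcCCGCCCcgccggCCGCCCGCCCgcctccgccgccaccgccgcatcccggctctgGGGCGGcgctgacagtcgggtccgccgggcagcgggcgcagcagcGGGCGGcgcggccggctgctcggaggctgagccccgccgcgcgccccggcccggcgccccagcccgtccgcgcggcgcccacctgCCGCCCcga
Wnt9a: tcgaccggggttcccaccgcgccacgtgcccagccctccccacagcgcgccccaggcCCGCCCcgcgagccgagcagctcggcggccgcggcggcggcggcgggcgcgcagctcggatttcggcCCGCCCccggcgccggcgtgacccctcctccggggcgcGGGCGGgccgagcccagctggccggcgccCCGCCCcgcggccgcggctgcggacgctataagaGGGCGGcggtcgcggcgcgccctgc
The Wnt6 window held 6 GGGCGG matches on both strands together, the Wnt4 window 8 and the Wnt9a window 5, and 32.7% of the 32851 RefSeq windows of this length held at least 1. They had 28, 44 and 48 CG pairs, against a median of 6 over all windows, and their GC contents were 79.6%, 85.2% and 84.4%. None of these 3 windows held CTTTGA or CTTTGT on either strand, letters within the Tcf/Lef core that 27.6% of all windows hold. Members not higher in both sets had entries too. The first listed window held 37 CG pairs and 4 GGGCGG matches for Wnt11, and 35 and 1 for Wnt5b. Further windows held 16 CG pairs and 0 matches for Wnt11, and 4 and 7 CG pairs with 0 and 2 matches for Wnt5b. Windows rich in CG pairs were thus not particular to the members higher in both sets. The matches describe letters in these windows only.

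Wnt4, Wnt9a and Wnt11 were highest in the 2 middle-total Snf2h ko libraries. Wnt4 (chr4:137277635-137299501, plus strand) acts in kidney tubule and female reproductive tract formation. It stood at 10.05 and 8.14 CPM in the mutant add-back, 2.87, 3.63 and 4.65 CPM in the wild-type add-back, 13.5, 13.9, 4.74, 3.97 and 3.66 CPM in Snf2h ko, and 1.59 to 2.78 CPM in wild type (median 2.13). Every Snf2h ko library was above every wild-type library, but Snf2h ko replicates 3, 4 and 5 overlapped the wild-type add-back. The log2 fold change in Snf2h ko over wild type was 1.87 (SE 0.29) over all libraries, 0.94 (SE 0.21) in the low-total and 2.69 (SE 0.22) in the middle-total ones. For the wild-type add-back over Snf2h ko it was -1.11 (SE 0.40), but -0.15 (SE 0.20) within the low-total libraries. In the mutant over the wild-type add-back it was 1.29 (SE 0.47).

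Wnt9a (chr11:59306849-59333552, plus strand), a ligand known from joint and liver development, had 5.23 and 5.52 CPM in the mutant add-back, 1.53, 2.15 and 2.02 CPM in the wild-type add-back, 9.06, 10.9, 3.78, 3.81 and 3.49 CPM in Snf2h ko, and 1.26 to 3.17 CPM in wild type (median 2.26). All mutant add-back and Snf2h ko libraries were above all wild-type add-back and wild-type libraries. The gap was narrow, as the lowest Snf2h ko library had 3.49 CPM and the highest wild-type library 3.17 CPM. The log2 fold change in Snf2h ko over wild type was 1.47 (SE 0.28) over all libraries, 1.31 (SE 0.19) in the low-total and 2.11 (SE 0.18) in the middle-total ones. In the wild-type add-back over Snf2h ko it was -1.72 (SE 0.40), and -0.96 (SE 0.19) within the low-total libraries. Mutant over wild-type add-back gave 1.5 (SE 0.47).

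Wnt11 (chr7:98835084-98854747, plus strand), which acts mostly without beta-catenin in cell movement, heart and kidney formation, had 6.43 and 6.09 CPM in the mutant add-back, 4.28, 4.55 and 3.84 CPM in the wild-type add-back, 10.04, 10.2, 3.10, 3.81 and 3.31 CPM in Snf2h ko, and 2.94 to 6.71 CPM in wild type (median 4.12). Only the 2 middle-total Snf2h ko libraries exceeded the wild-type range. The low-total Snf2h ko libraries lay within it. For Snf2h ko over wild type the log2 fold change was 0.55 (SE 0.27) over all libraries, -0.26 (SE 0.23) in the low-total and 1.46 (SE 0.24) in the middle-total ones. Wild-type add-back over Snf2h ko gave -0.55 (SE 0.37), and 0.31 (SE 0.23) in the low-total libraries. In the mutant over the wild-type add-back it was 0.57 (SE 0.45).

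For Wnt7b, Wnt5b and Wnt8a the libraries of Snf2h ko and wild type overlapped. Wnt7b (chr15:85535437-85581821, minus strand), which acts in lung, kidney and placenta, had 20.2 and 22.6 CPM in the mutant add-back, 15.45, 15.99 and 16.38 CPM in the wild-type add-back, 22.99, 26.1, 16.8, 18.0 and 17.2 CPM in Snf2h ko and 17.7 to 27.8 CPM in wild type (median 20.8). The wild-type add-back lay below every library of the other 3 groups. In Snf2h ko over wild type the log2 fold change was -0.07 (SE 0.12), -0.08 (SE 0.10) in the low-total and 0.18 (SE 0.11) in the middle-total libraries. It was -0.35 (SE 0.16) in the wild-type add-back over Snf2h ko, but -0.12 (SE 0.10) within the low-total libraries. In the mutant over the wild-type add-back it was 0.43 (SE 0.19).

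Wnt5b (chr6:119432531-119544824, minus strand), which acts mostly without beta-catenin in cartilage, stayed below 1 CPM throughout, with 0.460 and 0.455 CPM in the mutant add-back, 0.383, 0.615 and 0.337 CPM in the wild-type add-back, 0.394, 0.387, 0.790, 0.529 and 0.988 CPM in Snf2h ko, and 0.122 to 0.790 CPM in wild type (median 0.540). The ranges of all 4 groups overlapped. The log2 fold change in Snf2h ko over wild type was 0.26 (SE 0.32) over all libraries, 0.91 (SE 0.42) in the low-total and -0.81 (SE 0.46) in the middle-total ones. It was -0.42 (SE 0.46) in the wild-type add-back over Snf2h ko, and -0.76 (SE 0.42) within the low-total libraries. In the mutant over the wild-type add-back it was 0.03 (SE 0.59). Wnt8a (on chromosome 18), a ligand of the early primitive streak, had total counts of 1 in the mutant add-back, 3 in the wild-type add-back, 3 in Snf2h ko and 33 in wild type. Its highest level in any library was 0.313 CPM, in wild type, and its differences were not tested for lack of counts.

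Counted by whether libraries overlapped, 4 of the 8 members (Wnt6, Wnt10a, Wnt4 and Wnt9a) had every Snf2h ko library above every wild-type library. In this comparison 55.0% of all tested genes were called, 26.8% higher and 28.2% lower. The wild-type add-back lay below Snf2h ko in every library for 4 members, Wnt6, Wnt10a, Wnt9a and Wnt7b, and above it for Wnt8a, which rests on 1 read per library, where 45.0% of all tested genes were called (22.5% higher and 22.4% lower). The mutant add-back lay above the wild-type add-back in every library for 6 members and below it for Wnt8a, where 37.0% of all tested genes were called (18.4% higher and 18.6% lower). These shares are of genes called by edgeR, a different measure from overlap, and the share of all genes whose libraries did not overlap was not counted. Members had been picked on these comparisons, so the counts carry no weight of their own.

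To compare levels between ligands, CPM was divided by the exonic length in kb. In the mutant add-back the order was Wnt6 (17.4), Wnt7b (4.85), Wnt10a (2.83), Wnt4 (2.38), Wnt11 (1.97) and Wnt9a (1.62 CPM per kb), and none of these neighbours overlapped in the 2 libraries. In the wild-type add-back Wnt7b led (3.61 CPM per kb), with Wnt11 (1.33) and Wnt4 (0.972) overlapping below it and Wnt6 (0.631) and Wnt9a (0.573) overlapping below these. In Snf2h ko Wnt6 led (9.35 CPM per kb, range 6.67 to 11.4), above Wnt7b (4.58) without overlap, followed by Wnt4 (2.08), Wnt11 (1.92), Wnt9a (1.87) and Wnt10a (1.40) with overlapping ranges. In wild type Wnt7b led (4.81 CPM per kb), followed by Wnt11 (1.32), Wnt6 (0.795), Wnt9a (0.668) and Wnt4 (0.572), and the ranges of neighbours from Wnt11 down to Wnt4 overlapped.

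Summed over all 19 Wnt ligand genes, the level was 33.0 ± 1.90 CPM per kb in the mutant add-back, 8.18 ± 0.39 in the wild-type add-back, 23.5 ± 1.78 in Snf2h ko and 9.42 ± 0.64 in wild type (SD). Wnt6 made up 52.8% of this sum in the mutant add-back, 7.71% in the wild-type add-back, 40.4% in Snf2h ko (25.7% to 49.8%) and 8.63% in wild type (3.71% to 17.2%). Wnt7b made up 14.8%, 44.2%, 19.3% and 51.0% in the same groups. The 11 other ligands together came to 1.73 CPM per kb in the mutant add-back, 0.762 in the wild-type add-back, 2.08 in Snf2h ko and 0.868 in wild type, so the 8 members held most of the Wnt ligand RNA in each group.

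**Figure D2:**
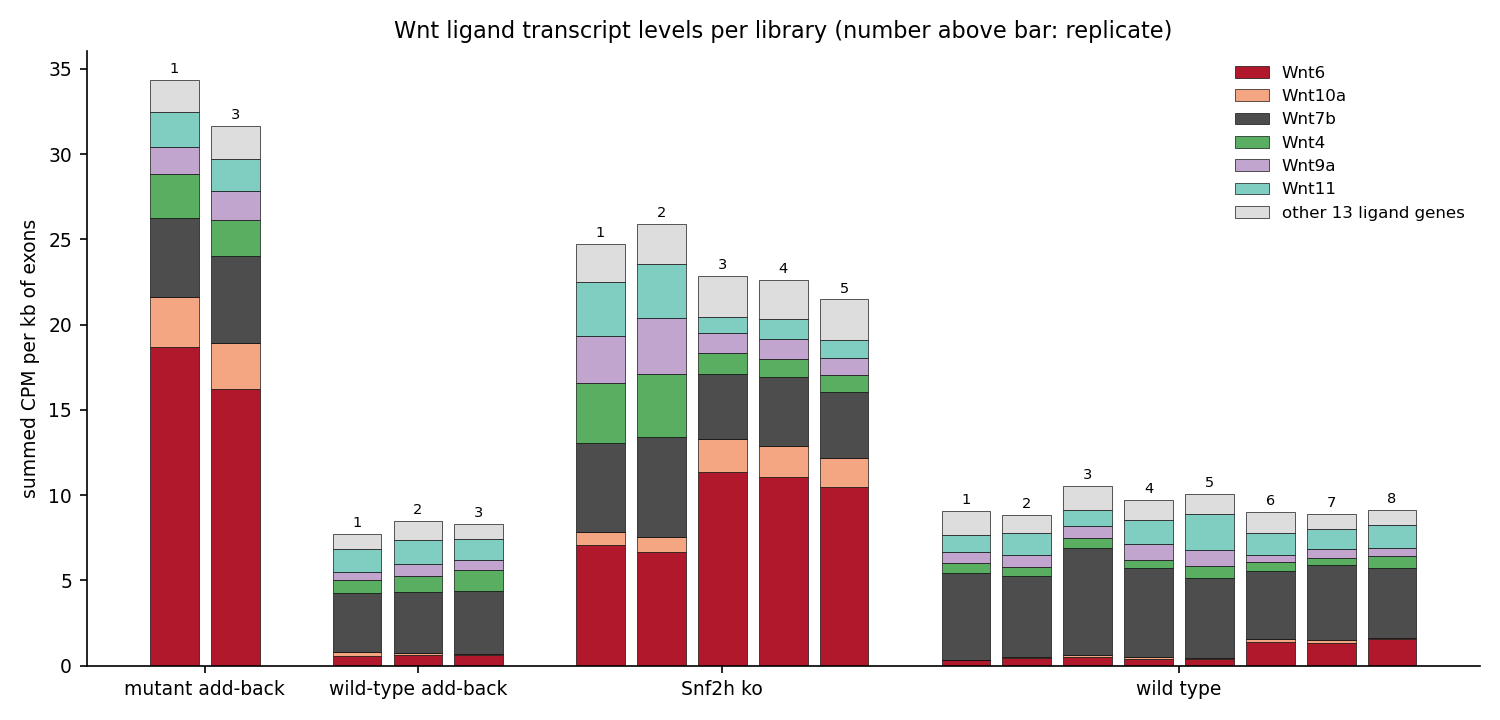
Stacked level of the 19 Wnt ligand genes in CPM per kb of exonic length (axis from 0) for each of the 18 libraries, grouped by genotype, with replicate numbers above the bars. Wnt6 is the largest segment in the mutant add-back (52.8% of the sum on average) and in every Snf2h ko library (40.4%), and Wnt7b is the largest in the wild-type add-back and in wild type.

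The mutant add-back was compared with Snf2h ko to ask whether returning an ATPase-mutant Snf2h changed the ligands, a comparison that the choice of genes did not use. Wnt6, Wnt4, Wnt11 and Wnt9a were higher in the mutant add-back than in the low-total Snf2h ko libraries, that is, among libraries of the same total set. Over all libraries, none of the 7 tested members was called by edgeR's quasi-likelihood test, and 0.322% of all tested genes were (0.114% higher and 0.208% lower). At an unadjusted p under 0.05 there were 2 (Wnt6 and Wnt10a), and DESeq2 called 0 of the 5 members to which it gave an adjusted p.

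Over all libraries Wnt6 was 0.90 higher on the log2 scale (SE 0.41, adjusted p = 0.30) and Wnt10a 1.03 higher (SE 0.41, adjusted p = 0.26), with both mutant add-back libraries above all 5 Snf2h ko libraries in each case. The adjusted p of the other 5 members ran from 0.73 to 0.99, and Wnt9a (-0.22, SE 0.41) had the opposite sign to its low-total value. Within the low-total libraries Wnt6 had 36.1 ± 3.55 CPM in the mutant add-back (n = 2) and 22.7 ± 0.92 CPM in Snf2h ko (n = 3), a log2 difference of 0.67 (95% interval 0.47 to 0.86, adjusted p = 8.6e-05). Wnt4 was 1.14 higher (SE 0.19, adjusted p = 5.7e-04), Wnt11 0.87 higher (SE 0.24, adjusted p = 0.018) and Wnt9a 0.54 higher (SE 0.17, adjusted p = 0.041). Wnt10a, 0.66 higher (SE 0.23, adjusted p = 0.060), and Wnt7b, 0.30 higher (SE 0.11, adjusted p = 0.069), missed the threshold, and Wnt5b was 0.73 lower (SE 0.46, adjusted p = 0.29). Thus 4 of 7 members were called, all higher, and 14.6% of all tested genes were called in this comparison, 6.83% higher and 7.80% lower.

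Each of the 5 low-total libraries compared was left out in turn. Wnt6 (log2 difference 0.56 to 0.77, adjusted p 1.8e-04 to 0.0088) and Wnt4 (0.98 to 1.29, adjusted p 8.2e-04 to 0.026) were called each time. Wnt11 kept a difference of 0.81 to 0.97 but missed the threshold without Snf2h ko replicate 3 (adjusted p = 0.072), Snf2h ko replicate 5 (0.052) or mutant add-back replicate 1 (0.16). Wnt9a kept a difference of 0.50 to 0.58 but missed it without any of the 5 (0.080 to 0.18) and with library size alone as the scaling (0.054). Beside these members, endoderm markers were also higher in the mutant add-back in this comparison, 11 of 11 tested with a median log2 change of 0.83. Trophectoderm markers had 5 of 9 tested higher and 1 lower. The summed level of the 13 endoderm markers was 4554 to 4704 CPM in the mutant add-back and 2610 to 2732 CPM in the low-total Snf2h ko libraries. Their part in the result was not tested.

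The wild-type add-back was compared with wild type to ask how closely the restored cells matched cells that never lost Snf2h, which the choice of genes did not use either. Over all libraries the ligands overlapped, except that Wnt7b was lower and Wnt4 higher in every wild-type add-back library. None of the 7 tested members was called by edgeR, 1.60% of all tested genes were (0.430% higher and 1.17% lower), 1 member (Wnt7b) had an unadjusted p under 0.05, and DESeq2 called 0 of 7. With the total set as a term in the fit 2 members were called, Wnt6 (-0.94, adjusted p = 0.017) and Wnt4 (1.24, adjusted p = 0.025). Without that term Wnt6 differed by -0.24 (SE 0.48, adjusted p = 0.85) and Wnt10a by 0.06 (SE 0.69, adjusted p = 0.98). The interval for Wnt6 ran from -1.25 to 0.77 and that for Wnt10a from -1.38 to 1.49 on the log2 scale. Over all libraries the data are compatible with any difference within these intervals, so a match to wild type is not shown. Wnt7b differed by -0.42 (SE 0.15, adjusted p = 0.18) and Wnt4 by 0.76 (SE 0.36, adjusted p = 0.33).

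Within the low-total libraries Wnt6 was lower in the wild-type add-back, at 1.21, 1.35 and 1.35 CPM, against 2.84, 2.81 and 3.24 CPM in wild type. The log2 difference was -1.18 (SE 0.17, adjusted p = 3.5e-05), and the adjusted p stayed between 1.5e-04 and 4.8e-04 without any 1 of the 6 libraries. Wnt4 was higher, by 0.78 (SE 0.22, adjusted p = 0.014), but it missed the threshold when wild-type replicate 6 (adjusted p = 0.05), wild-type replicate 7 (0.082) or wild-type add-back replicate 3 (0.090) was left out. The other 5 members had adjusted p of 0.16 to 0.91. In this comparison 22.5% of all tested genes were called, 10.7% higher and 11.8% lower. Against the middle-total and high-total wild-type libraries, at 0.746 to 1.00 CPM of Wnt6, the wild-type add-back was higher, so the direction for Wnt6 depended on which wild-type libraries it was set against. Endoderm markers were called lower for 5 of 11 in the low-total comparison and higher for 0, and their part in the result was not tested.

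**Figure D3:**
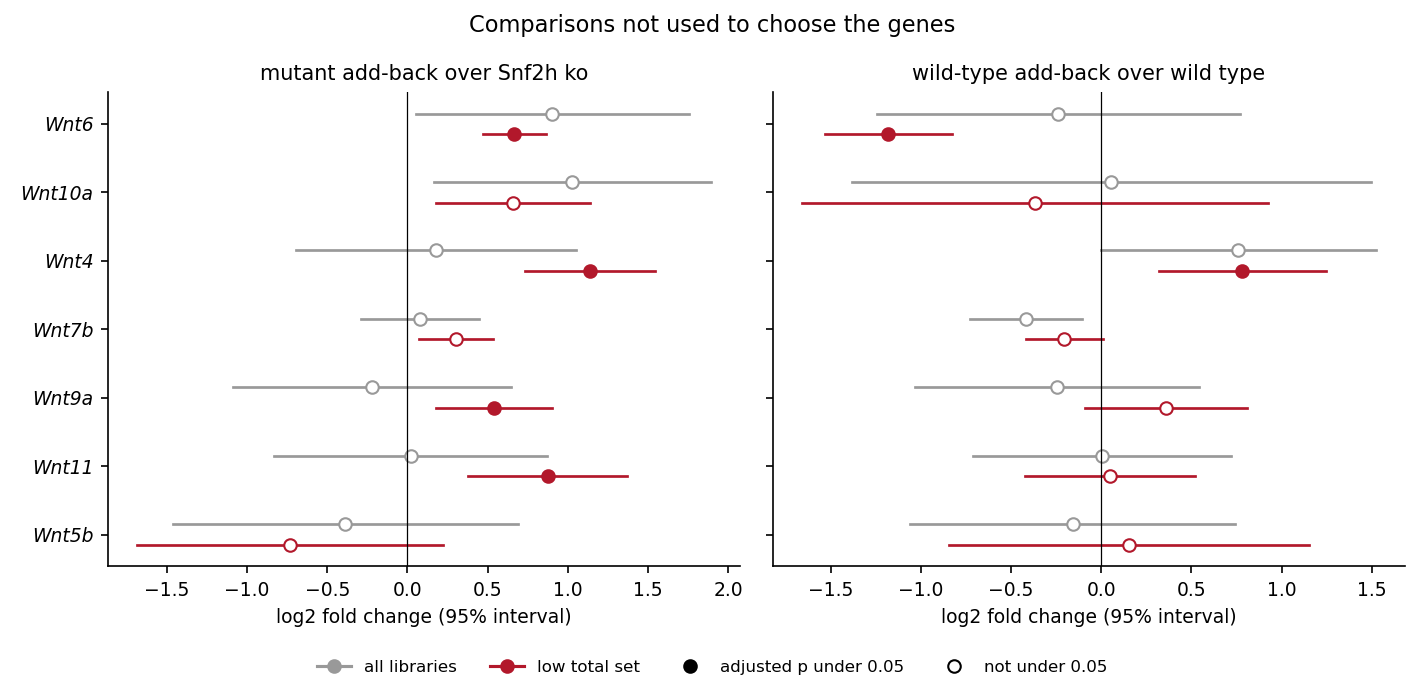
Log2 fold change with 95% interval of the 7 tested members in the mutant add-back over Snf2h ko and in the wild-type add-back over wild type, over all libraries (grey) and within the low-total libraries (red). Filled points have an adjusted p under 0.05, and all filled points are from the low-total libraries (Wnt6, Wnt4, Wnt11 and Wnt9a on the left, Wnt6 and Wnt4 on the right).

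The size of the Snf2h ko effect differed between the total sets for 5 of 7 tested members, 4 of them with a larger value in the middle-total libraries. The choice of genes had used the ko effect itself, but not its difference between the sets, and 26.7% of all tested genes were called for this difference (13.2% higher and 13.6% lower). The difference of the log2 effects, middle minus low, was 1.75 for Wnt4 (SE 0.31, adjusted p = 2.5e-04), 1.72 for Wnt11 (SE 0.33, adjusted p = 4.6e-04), 1.15 for Wnt6 (SE 0.22, adjusted p = 4.6e-04) and 0.79 for Wnt9a (SE 0.27, adjusted p = 0.034). For Wnt5b it was -1.73 (SE 0.62, adjusted p = 0.044). For Wnt10a it was 0.77 (SE 0.83, adjusted p = 0.53) and for Wnt7b 0.27 (SE 0.15, adjusted p = 0.21).

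The groups that moved were not the same for each ligand. Wnt6 was lower in the middle-total than in the low-total libraries in Snf2h ko (log2 difference -0.68, SE 0.10, adjusted p = 1.8e-05) and lower by more in wild type (-1.82, SE 0.19, adjusted p = 3.1e-07). Wnt10a was lower in the middle-total Snf2h ko libraries (-1.13, SE 0.26, adjusted p = 0.0015), with -1.91 (SE 0.80, adjusted p = 0.058) in wild type. Wnt4 (1.73, SE 0.18, adjusted p = 2.5e-07), Wnt11 (1.57, SE 0.22, adjusted p = 8.8e-06), Wnt9a (1.43, SE 0.16, adjusted p = 4.2e-07) and Wnt7b (0.50, SE 0.11, adjusted p = 7.2e-04) were instead higher in the middle-total Snf2h ko libraries. In wild type Wnt9a was also higher there (0.64, SE 0.21, adjusted p = 0.021), while Wnt4 (-0.02) and Wnt11 (-0.15) had adjusted p of 0.96 and 0.63.

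Endoderm markers moved with the set as well. Their summed level was 10300 to 11160 CPM in the middle-total and 2610 to 2732 CPM in the low-total Snf2h ko libraries, and 1960 to 2064 CPM in the middle-total and 3900 to 3981 CPM in the low-total wild-type libraries. All 11 tested markers were higher in the middle-total than in the low-total Snf2h ko libraries (median log2 change 1.98), and Gata6, a defining endoderm factor, stood at 51.3 ± 0.75 CPM (n = 2) against 13.7 ± 1.43 CPM (n = 3). Trophectoderm markers (10 listed) summed to 440.9 to 467.6 CPM against 204.1 to 206.4 CPM in the same libraries. For the other groups the trophectoderm sum was 344.1 to 408.2 CPM in the mutant add-back, 196.5 to 208.4 CPM in the wild-type add-back and 146.0 to 209.1 CPM in wild type. All 8 ES cell markers were lower in the middle-total than in the low-total Snf2h ko libraries (median log2 change -0.49), with a summed level of 3921 to 3963 CPM against 5480 to 5613 CPM. Wnt4, Wnt9a and Wnt11 were thus higher where endoderm markers were higher and ES cell markers lower in Snf2h ko, and Wnt6 and Wnt10a were lower there. Other comparisons differed. In low-total Snf2h ko against wild type 10 of 11 endoderm markers were lower (median -0.83), with Wnt4 at 0.94, Wnt9a at 1.31 and Wnt11 at -0.26. In middle-total against low-total wild type all 11 were lower (median -1.41), with Wnt4 at -0.02, Wnt9a at 0.64 and Wnt11 at -0.15. The part of the makeup of the cultures in these levels was not tested.

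Among the 11 other Wnt ligand genes, 5 passed the filter, and 3 of them, Wnt10b, Wnt3a and Wnt5a, were higher in Snf2h ko than in wild type, as were 26.8% of all tested genes. Wnt10b and Wnt7a passed the filter only through Snf2h ko, where they were high. Within the low-total libraries all 5 were higher, as were 29.3% of all tested genes, and within the middle-total ones 3 were, as were 29.9%. These counts include Wnt10b and Wnt7a, whose calls carry no weight of their own. Wnt3a, a canonical ligand that maintains ES cells and drives paraxial mesoderm, had 2.00 ± 0.42 CPM in the mutant add-back, 0.321 ± 0.015 in the wild-type add-back, 1.94 ± 0.37 in Snf2h ko and 0.442 ± 0.300 in wild type (SD). In Snf2h ko over wild type its log2 fold change was 2.22 (SE 0.34, adjusted p = 2.0e-05), 1.43 in the low-total and 3.04 in the middle-total libraries. It was -2.57 in the wild-type add-back over Snf2h ko (SE 0.52, adjusted p = 5.9e-04) and 2.62 in the mutant over the wild-type add-back (SE 0.59, adjusted p = 0.0021). Wnt3a is the nearest tested gene to Wnt9a on its lower-coordinate side, 16.1 kb away on the opposite strand, and its mutant add-back and Snf2h ko libraries were all above its wild-type add-back and wild-type libraries, as for Wnt9a. In the other adjacent ligand pairs, Wnt1 (beside Wnt10b) and Wnt9b (beside Wnt3) were below the filter.

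Wnt10b, a ligand of bone and fat development, was 3.48 higher on the log2 scale in Snf2h ko than in wild type (SE 0.49, adjusted p = 9.2e-06) at 0.342 CPM in the mutant add-back, 0.108 in the wild-type add-back, 0.562 in Snf2h ko and 0.0459 in wild type. It was 2.33 lower in the wild-type add-back than in Snf2h ko (SE 0.66, adjusted p = 0.0079). Its total count was 12 in the mutant add-back, 5 in the wild-type add-back, 59 in Snf2h ko and 9 in wild type. Because Wnt10b passed the filter only through Snf2h ko, where it was high, its calls in these comparisons carry no weight of their own. Wnt5a, a ligand of the Ror receptors, was 1.27 higher in Snf2h ko than in wild type (SE 0.19, adjusted p = 1.7e-05) and differed by -0.53 in the wild-type add-back from Snf2h ko (SE 0.25, adjusted p = 0.091). Wnt3, which starts the primitive streak, was not called in Snf2h ko against wild type over all libraries (log2 0.00, adjusted p = 0.99), but was 1.96 higher in the low-total ones (adjusted p = 0.0043) with -0.42 in the middle-total ones (adjusted p = 0.44), a difference of -2.38 (adjusted p = 0.019). In Snf2h ko against wild type 60.1% of all tested genes were called within the low-total libraries (29.3% higher and 30.8% lower) and 61.8% within the middle-total ones (29.9% higher and 31.9% lower). Wnt7a, which patterns the limb, had 0.71 (adjusted p = 0.051). Neither the pooled nor the low-total comparison of the mutant add-back with Snf2h ko called any of these 5 genes, with adjusted p from 0.38 to 0.97. The other 6 ligand genes, Wnt1, Wnt2, Wnt2b, Wnt8b, Wnt9b and Wnt16, were below the filter.

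The neighbours of Wnt6 and Wnt10a did not move as a block. Within 250 kb on either side, RefSeq lists 22 other genes, of which 17 were in the table and 16 were tested. In Snf2h ko against wild type 6 were higher and 3 lower, a share near the 55.0% of all tested genes (26.8% higher and 28.2% lower), with a median log2 change of -0.05, against -0.0092 over all tested genes. The genes closest to the pair on the Wnt6 side, Prkag3 (4.87 kb away, log2 -0.62, adjusted p = 0.083) and Cyp27a1 (16.4 kb away, -0.60, adjusted p = 0.055), were not called. Ttll4, a tubulin-modifying enzyme 52.5 kb away, fell by 2.93 (SE 0.09, adjusted p = 4.1e-14), at 9.52 CPM in the mutant add-back, 96.3 in the wild-type add-back, 19.9 in Snf2h ko and 151.5 in wild type.

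On the Wnt10a side, 4 of 6 tested genes rose, in a comparison where 26.8% of all tested genes did. Cdk5r2, an activator of the kinase Cdk5 in neurons and the closest tested gene at 50.8 kb, had 29.9 ± 1.42 CPM in the mutant add-back, 2.86 ± 0.45 in the wild-type add-back, 18.7 ± 5.92 in Snf2h ko and 3.20 ± 0.98 in wild type (SD). Its log2 fold change in Snf2h ko over wild type was 2.54 (SE 0.21, adjusted p = 1.4e-08). Fev, a transcription factor of serotonin neurons 77.3 kb away, was 3.25 higher (SE 0.36, adjusted p = 4.6e-07), with 2.09 in the low-total and 4.81 in the middle-total libraries. Cryba2, a crystallin 85.8 kb away, was 5.45 higher (SE 0.41, adjusted p = 3.8e-09). Both had levels below 2 CPM on average and total counts of only 252 and 180 over the 18 libraries. They passed the filter through Snf2h ko and the mutant add-back, where they were high. Their calls, which the counts of higher neighbours include, thus carry no weight of their own. Ihh, a hedgehog ligand 141 kb away, was 1.42 higher over all libraries (SE 0.45, adjusted p = 0.012), which came from the middle-total libraries (3.72) and not from the low-total ones (-0.29, adjusted p = 0.22). In the wild-type add-back against Snf2h ko all 4 were lower, Cdk5r2 by a log2 difference of -2.70 and Cryba2 by -4.54. Over all libraries 1 of the 16 neighbours was called in the mutant add-back against Snf2h ko, Ttll4 (-1.06, adjusted p = 7.3e-04). Further away on the Wnt6 side, Plcd4 (1.54) and Stk36 (0.47) were higher and Zfp142 (-0.74) and Cnot9 (-0.38) lower in Snf2h ko.

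**Figure D4:**
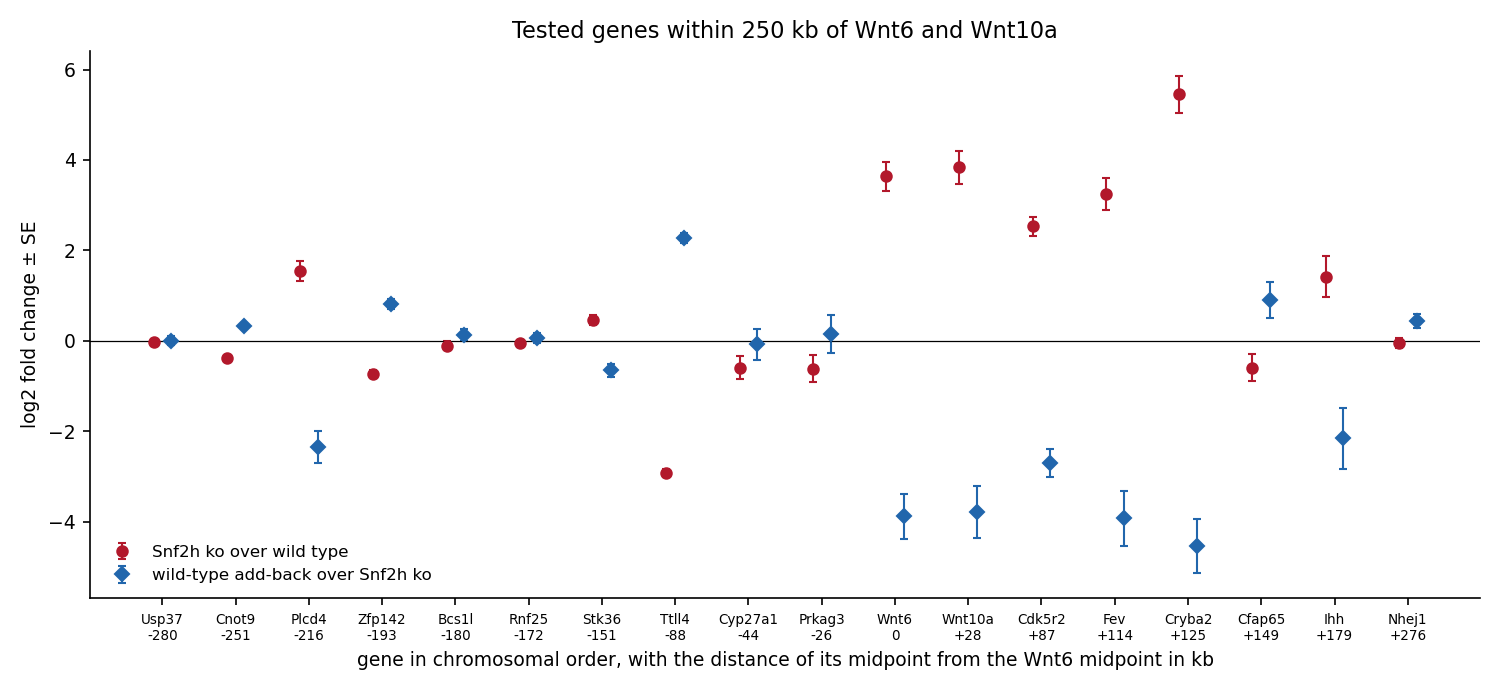
Log2 fold change ± SE of Snf2h ko over wild type and of the wild-type add-back over Snf2h ko for Wnt6, Wnt10a and the 16 tested neighbours within 250 kb. Genes are in chromosomal order, with the distance of each midpoint from the Wnt6 midpoint in kb, which differs from the gaps to the pair given in the text. Wnt6, Wnt10a and the 4 tested genes on the Wnt10a side from Cdk5r2 to Ihh other than Cfap65 are positive in the first comparison and negative in the second, and Ttll4 runs the other way.

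The nearest tested genes of the other members had changes of either sign. For Wnt4 these were Zbtb40 (log2 change in Snf2h ko over wild type -0.25, adjusted p = 0.037) and Cdc42 (-0.06, adjusted p = 0.37), for Wnt7b Atxn10 (-0.37) and Ppara (0.12), and for Wnt11 Thap12 (-0.25) and Uvrag (0.35). For Wnt5b they were Adipor2 (0.10), Erc1 (-0.38) and the overlapping Fbxl14 (-0.06), and for Wnt8a Fam13b (-0.02) and Nme5 (0.92, adjusted p = 0.012). On the side of Wnt9a away from Wnt3a, Snap47 had -0.22 (adjusted p = 0.015).

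Genes that carry, receive and transduce the Wnt signal moved in both directions. Of 86 listed non-member genes of the pathway, the 11 other ligands included, 72 were tested. In Snf2h ko against wild type 23 were higher and 19 lower (58.3%, against 55.0% of all tested genes), with a median log2 change of 0.04, against -0.0092 over all tested genes. Between the wild-type add-back and Snf2h ko 12 were higher and 26 lower (45.0% of all tested genes were called, 22.5% higher and 22.4% lower), but 24 in all were called without wild-type add-back replicate 2. Within the low-total libraries 19 were higher and 30 lower, where 58.6% of all tested genes were called (29.7% higher and 28.8% lower). In the mutant against the wild-type add-back 12 were higher and 19 lower (37.0% of all tested genes were called, 18.4% higher and 18.6% lower), and 14 in all were called without mutant add-back replicate 1. In the fit with the total sets the same libraries gave 23 higher and 22 lower, where 60.6% of all tested genes were called (30.6% higher and 30% lower).

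In the sending cell, Porcn, which acylates Wnt ligands, had 14.7 ± 1.43 CPM in the mutant add-back, 22.7 ± 0.33 CPM in the wild-type add-back, 13.6 ± 1.90 CPM in Snf2h ko and 33.9 ± 7.19 CPM in wild type (SD). Its log2 fold change in Snf2h ko over wild type was -1.33 (SE 0.14, adjusted p = 3.3e-07). Of the 4 tested secretion genes, 1 was lower and 1 (Tmed5, 0.30, adjusted p = 0.031, but 0.02 with adjusted p = 0.88 in the low-total libraries) was higher. Of 16 receptors 2 were higher and 6 lower. Fzd7, the main Frizzled of ES cells, fell by 1.01 (SE 0.08, adjusted p = 7.2e-09), Ror1 fell by 1.46 (adjusted p = 4.8e-06) and Fzd6 fell by 0.96 (adjusted p = 1.2e-04), while Ror2 rose by 0.68 (SE 0.09, adjusted p = 2.5e-06). Of 7 genes of the R-spondin axis, which sets Frizzled turnover, 2 were higher and 3 lower, among them the receptor Lgr4 (-0.61, adjusted p = 5.7e-07) and the ligase Znrf3 (-0.36, adjusted p = 0.002).

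Of 9 tested secreted inhibitors 5 were higher and 1 lower (66.7% called, against 55.0% of all tested genes, 26.8% higher and 28.2% lower). Sfrp2, which binds Wnt ligands outside the cell, had 36.6 ± 4.20 CPM in the mutant add-back, 8.13 ± 0.26 in the wild-type add-back, 32.7 ± 5.49 in Snf2h ko and 11.3 ± 4.55 in wild type. It was 1.51 higher in Snf2h ko than in wild type (SE 0.22, adjusted p = 1.7e-05), with 2.60 in the low-total and 1.07 in the middle-total libraries. Sfrp1 rose by 0.69 (adjusted p = 2.2e-04), but by 0.13 (adjusted p = 0.12) in the middle-total libraries, Dkk3 rose by 0.95 (adjusted p = 0.0041) and Sfrp4 fell by 0.87 (adjusted p = 2.2e-04). Of 15 genes of intracellular transduction 6 were higher and 2 lower (53.3% called). Dvl1, which relays the Frizzled signal, was 0.73 higher (SE 0.07, adjusted p = 4.0e-08) and Axin1, a scaffold of the complex that degrades beta-catenin, 0.39 lower (adjusted p = 3.3e-04).

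Of 8 Tcf/Lef factors and coactivators 1 was higher and 3 lower, and of 15 Wnt target genes 4 were higher and 5 lower. Lef1, a transcription factor of the pathway and itself a target, had 0.314 ± 0.038 CPM in the mutant add-back, 16.0 ± 1.56 CPM in the wild-type add-back, 0.477 ± 0.149 CPM in Snf2h ko and 13.95 ± 5.67 CPM in wild type. It was 4.83 lower on the log2 scale in Snf2h ko than in wild type (SE 0.34, adjusted p = 1.5e-09) and 5.01 higher in the wild-type add-back than in Snf2h ko (SE 0.37, adjusted p = 6.7e-09), the opposite order to Wnt6. The targets Ccnd1 (-1.25, SE 0.16, adjusted p = 2.7e-06) and Myc (-1.40, SE 0.30, adjusted p = 8.0e-04) were lower in Snf2h ko as well. Axin2, a feedback inhibitor and target, was 0.69 higher (SE 0.21, adjusted p = 0.011), with 0.29 (adjusted p = 0.012) in the low-total and 1.15 (adjusted p = 8.7e-08) in the middle-total libraries.

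In the mutant add-back against Snf2h ko none of the 72 pathway genes was called by edgeR over all libraries (11 at an unadjusted p under 0.05, 2 by DESeq2, and 2 by edgeR without mutant add-back replicate 3). Within the low-total libraries 3 were higher and 14 lower, 23.6% against 14.6% of all tested genes. Between the wild-type add-back and wild type 1 was called over all libraries, and 12 were higher and 11 lower within the low-total ones (31.9% against 22.5%).

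**Figure D5:**
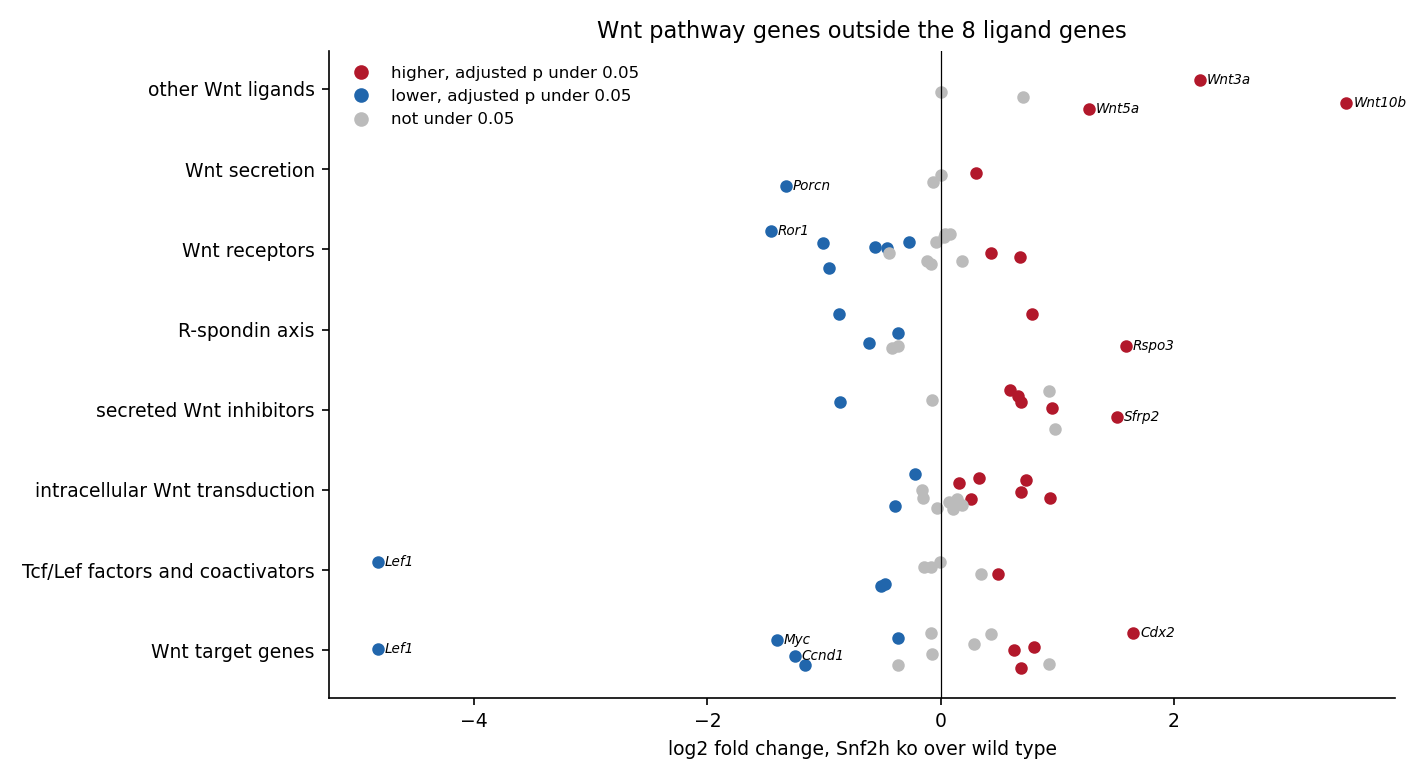
Log2 fold change of Snf2h ko over wild type for the tested genes of each Wnt pathway list, coloured by whether edgeR called them higher, lower or not at an adjusted p under 0.05. Of the secreted inhibitors 5 of 9 were called higher and 1 lower, and of the receptors 2 of 16 higher and 6 lower. Of all tested genes 26.8% were called higher and 28.2% lower. Lef1 is the lowest point at -4.83.

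Genes whose levels ran most like those of Wnt6 over the 18 libraries were sought among the 10975 tested genes that are no members, carry no predicted or clone name and reach 5 CPM in a group. The closest were Ptrf, a caveolar coat protein (Pearson r of log2 CPM 0.995), Emp1 (0.990), Rcn1 (0.989), Gnb2 (0.988) and Ass1 (0.986). Ptrf had 244 ± 20.7 CPM in the mutant add-back, 55.7 ± 1.37 in the wild-type add-back, 181 ± 26.5 in Snf2h ko and 57.9 ± 11.9 in wild type (SD). For Wnt10a the closest were Crip2 (0.978), Bdh1 (0.978), Dnajb13 (0.976), Rasl11a (0.973) and Tgfb1 (0.973). Among the members, the r with Wnt6 was 0.95 for Wnt10a, 0.72 for Wnt4, 0.65 for Wnt9a, 0.32 for Wnt11, 0.13 for Wnt5b and -0.02 for Wnt7b. All these values share the 18 libraries, their groups and their total sets, and are given as a description.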

How the data were processed

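The authors deposited raw read counts for 24116 genes in 18 libraries, each library in its own column. Polyadenylated RNA was extracted with RNeasy columns and made into libraries with a stranded TruSeq kit, per the labels' protocols. The submitters' processing notes name bcl2fastq 2.17, STAR and the mm10 (GRCm38) build. How reads were counted (tool, annotation, strand) was not given in the sources used here, so overlapping genes may share reads.

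A single edgeR 4.0.16 fit (R 4.3.3, limma 3.58.1) served all comparisons, with 1 mean per group, TMM scaling, the two-sided robust quasi-likelihood test and Benjamini-Hochberg adjustment over the 14901 genes that filterByExpr kept at a count minimum of 10. Called means an adjusted p under 0.05. Within-set values come from a second fit with 1 mean per group and total set, where the sets (under 20 M counts, 20 to 30 M, and from 30 M) were defined from the library totals and are not groups of the study. SEs are the log2 change divided by the square root of F, CPM uses TMM-scaled totals, and log2 CPM a prior count of 2. Totals of 15.3 to 37.0 M counts make counting error small above a few CPM. Members below about 1 CPM rest on few reads. Coordinates and promoter windows are from RefSeq on GRCm38.p6, joined by Entrez identifier.

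The members and gene lists were chosen with earlier results of these data known. Named genes are the 19 ligands, Smarca5, up to 4 genes per pathway list with the smallest adjusted p in Snf2h ko against wild type, genes near the members, and the 5 genes most alike to Wnt6 and to Wnt10a. The marker lists were ES cell, embryonic fibroblast, endoderm, trophectoderm and primitive streak. Alternatives were DESeq2 1.42.0, other scalings and filters, each replicate left out, a replicate block, the total set as a term and the low-total libraries alone, and leaving out or rescaling low-total libraries was added after the data were seen. By a chi-square per gene no 2 libraries of a group were alike within sampling noise. It ran from 1.83 to 2.55 within the sets and from 50.3 to 56.4 between them in Snf2h ko. In wild type it was 1.48 to 2.16 among low-total libraries, 15.9 to 40.8 among high-total ones and 31 to 69.2 between sets. The wild-type add-back had 2.09 to 6.72 and the mutant add-back 14. P-values within the low-total libraries rest on the spread within that set, which may be technical.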

Additional observations from a re-analysis of the deposited data

Results flagged for a closer look

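The ko effect (log2 of Snf2h ko over wild type) differed between the middle-total and the low-total libraries by a test of the difference itself for 5 members. The difference, middle minus low, was 1.15 for Wnt6 (adjusted p = 4.6e-04), 1.75 for Wnt4 (adjusted p = 2.5e-04), 0.79 for Wnt9a (adjusted p = 0.034), 1.72 for Wnt11 (adjusted p = 4.6e-04) and -1.73 for Wnt5b (adjusted p = 0.044). Of the other ligands, Wnt3a differed by 1.61 (adjusted p = 0.036) and Wnt3 by -2.38 (adjusted p = 0.019). Each set holds 2 or 3 libraries per group, and what separates the sets was not given in the labels.

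Wild-type replicate 5 stood apart for Wnt11, at 6.71 CPM, with a gap to the next library of 0.614 of the group's range. Dixon's 95% critical value was passed in 1 of the 16 groups of member values to which it was applied, and chance passes it in about 1 of 20.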

How the results depend on the processing

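None of the called low-total values of members changed sign without any 1 library or with another scaling. Some of the members' other tested values, none of them called over all libraries, changed sign. For the mutant add-back over Snf2h ko, Wnt9a (-0.22) had 0.539 (adjusted p = 0.011) with the low-total libraries alone, 0.539 within 1 fit and 0.387 with the total set as a term. Between the wild-type add-back and wild type, Wnt10a (0.06) had -0.364, -0.368 and -0.197 in these 3 fits, Wnt9a (-0.25) 0.361, 0.358 and 0.596, and Wnt5b (-0.16) 0.153 and 0.154 in the first 2. Wnt11 had -0.00782 with library size alone for the mutant add-back over Snf2h ko, and between the wild-type add-back and wild type -0.0044 with library size alone and -0.00286 with a count minimum of 50. With 1 replicate left out, the mutant add-back over Snf2h ko ranged from -0.0205 to 0.474 for Wnt4, -0.0168 to 0.188 for Wnt7b, -0.387 to 0.0799 for Wnt9a and -0.163 to 0.286 for Wnt11. Between the wild-type add-back and wild type the ranges were -0.9 to 0.433 for Wnt10a, -0.0593 to 0.138 for Wnt11 and -0.465 to 0.00155 for Wnt5b, and within the low-total libraries -1.32 to 0.0043, -0.0147 to 0.109 and -0.247 to 0.737 for the same members. Of the members' untested differences between Snf2h ko and wild type, those of Wnt11 (-0.26, low-total), Wnt7b (0.18) and Wnt5b (-0.81, both middle-total) had the other sign within a set. For the mutant add-back against Snf2h ko, 48 genes were called, 0 of them in the Wnt pathway. DESeq2's Wald test gave 333 and 2, DESeq2 size factors 1 pathway gene, the low-total libraries alone 3685 and 23, the same libraries within 1 fit 2180 and 17, the total set as a term 480 and 1, and 1 replicate left out 4 to 143 and 0 to 2 (4 without mutant add-back replicate 1, 143 without mutant add-back replicate 3, 25 without Snf2h ko replicate 1). Between the wild-type add-back and wild type, 238 genes were called, 1 in the pathway. Here 486 and 3 were called by the Wald test, 4786 and 28 with the low-total libraries alone, 3358 and 23 with them within 1 fit, 1532 and 11 with the set as a term, and 44 to 260 and 0 to 2 with 1 replicate left out. For the mutant against the wild-type add-back, 5507 and 31 were called, 9744 and 47 with the low-total libraries alone, 9029 within 1 fit, and 3014 to 4684 and 14 to 24 with 1 replicate left out. For the wild-type add-back against Snf2h ko, 6701 and 38 were called, and 5271 to 6519 and 24 to 37 with 1 replicate left out. For Snf2h ko against wild type, 8192 and 42 were called, and 7425 to 8246 and 36 to 43 with 1 replicate left out. Among the members, the low-total calls in the mutant add-back against Snf2h ko numbered 4, and 2 to 3 with 1 library left out, while those between the wild-type add-back and wild type numbered 2, and 1 to 2 with 1 library left out. The low-total libraries alone called 6 and 3 members. The cause was not tested. In Snf2h ko against wild type 3 of 5 same-numbered pairs correlated above 0.1 in their deviations from the group means (range over the 5 pairs -0.246 to 0.169), and 1 of 10 libraries correlated best with its own number. The 2 pairs of mutant and wild-type add-back had 0.0665 and 0.174, and no pair of the other comparisons was above 0.1 (0 of 6 libraries correlated best with their own number in either comparison with 3 pairs). Not every pair passed 0.1, so numbers were not taken to pair the libraries. A replicate block gave 1002 and 6 calls between the wild-type add-back and wild type, with Wnt7b called (-0.61, adjusted p = 0.040), Wnt6 at 0.714 (adjusted p = 0.11) and Wnt11 at -0.0687. In the other comparisons, with the block, mutant add-back against Snf2h ko had 48 and 0, mutant against wild-type add-back 5855 and 32, wild-type add-back against Snf2h ko 6861 and 37, and Snf2h ko against wild type 8092 and 41. Depth limits Wnt8a, Wnt5b and, outside the mutant add-back and Snf2h ko, Wnt10a.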
